A study of Mus musculus with 6 samples.

Results

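Smad7, Pmepa1, Skil, Ski, Smurf2, Ldlrad4 and Tgif1 encode proteins that restrain TGF-beta signalling at the receptor or at the Smad proteins. These 7 genes were taken by their symbols from the 32285 genes of the matrices, and all 7 were found and tested. They were measured by 10x 3′ single-cell RNA sequencing in OT-II CD4+ T cells, whose receptor recognises an ovalbumin peptide. The donors were OTII+/+RAG-/- mice that were either WT or TgfbrIWT/mut, which is heterozygous for the M318R allele of Tgfbr1, a receptor kinase for TGF-beta. The allele, known from patients with Loeys-Dietz syndrome (LDS), was knocked into the mouse gene, so every cell of the donor carries it. Donor cells of both genotypes were injected into CD45.1 WT hosts, which drank water with 1.5% ovalbumin for 7 days. On day 8, CD45.2+CD45.1-CD4+CD8-TCRβ+ cells were sorted out of Peyer's patches, which are lymphoid follicles in the wall of the gut. The libraries WT 1 and WT 2 hold WT cells, and mutant 1 and mutant 2 hold TgfbrIWT/mut cells (2 per genotype). Ages of donors and hosts are not given for this transfer, and the labels do not say whether each library is a separate mouse or a pool. So the p-values reflect only how much the libraries vary, and that variation may be technical. The design text also describes peanut and rapamycin experiments, and the labels place these libraries in neither.

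As background, TGF-beta binds a pair of receptor kinases, and the type I kinase phosphorylates Smad2 and Smad3, which enter the nucleus with Smad4 and change transcription. Several of the genes switched on in this way encode inhibitors of the same pathway, so that the response limits itself. In CD4+ T cells, TGF-beta is known for its part in making regulatory and Th17 cells and for restraining effector functions. Smad7 occupies the activated type I receptor and recruits ubiquitin ligases to it, and Smurf2 is one of these ligases. Pmepa1 and Ldlrad4 are membrane proteins that keep Smad2 and Smad3 from the receptor. Skil (SnoN) and Ski are nuclear co-repressors that bind Smads, and Tgif1 is a homeodomain co-repressor of Smad2 and Smad3.

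After filtering, 2972 T cells were kept, in number 1277 (WT 1), 631 (WT 2), 882 (mutant 1) and 182 (mutant 2). Together they held between 1705481 (mutant 2) and 12053787 (WT 1) UMIs per library. Mutant 2 had the fewest cells and UMIs and gives the least precise values. Median UMIs per kept cell lay between 8638 (mutant 1) and 9034 (mutant 2). Libraries shared 7 to 18 cell barcodes per pair. Cd3e, a chain of the T cell receptor complex, was found in 96.8% to 98.0% of kept cells thinned to 3000 UMIs, and in 17.5% of cells of the non-T cluster that was left out. Summed epithelial markers gave 10.1 and 13.8 CPM (UMI counts scaled to library size) in WT and 14.0 and 15.8 in mutant libraries with Cdh1 at 0. The WT matrices also held counts of 3 antibody tags and the mutant matrices held none, so tag handling and genotype cannot be told apart. Tgfbr1 itself gave 31.4 and 26.0 CPM in WT and 27.8 and 17.6 in mutant libraries (log2 fold change -0.24 ± 0.19 (SE), edgeR adjusted p = 0.643). A point mutation does not alter 3′ tags, so this level does not check the genotype labels.

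The first comparison asked whether these inhibitors differ when the T cells themselves carry the mutated receptor. Over all kept T cells, Pmepa1, Smad7 and Skil fell in mutant cells to levels 2.34, 2.75 and 1.75 times lower than in WT cells, while Ski, Smurf2, Ldlrad4 and Tgif1 did not pass the test. Thus 3 of the 7 genes fell and 0 rose, where 0.531% of the 10727 genes tested fell and 0.904% rose. The 7 genes were chosen with earlier results of these data known, so these shares are a description and do not test the set. The genes that fell include members acting at the receptor and at the Smads. Their ranks by p among all genes were 11 for Pmepa1, 23 for Smad7 and 45 for Skil. The median log2 fold change was -0.29 over the 7 genes and -0.00 over all genes tested. Of all genes, 97 rose, 57 fell and 1354 had an unadjusted p under 0.05. Levels below are CPM after TMM scaling unless stated otherwise, and fold changes are mutant minus WT on the log2 scale. Every p is from edgeR's quasi-likelihood test, adjusted by Benjamini-Hochberg over all genes tested, unless another tool is named.

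Among the members that act at the receptor, Smad7 (ENSMUSG00000025880, GRCm38 chromosome 18, 75367529 to 75395935, plus strand) stood at 71.7 (WT 1), 45.9 (WT 2), 19.2 (mutant 1) and 27.2 (mutant 2). The lower WT library was well above the higher mutant library, and the WT libraries also differed from each other. The means were 58.8 ± 18.3 and 23.2 ± 5.69 (SD, n = 2 each), and the log2 difference was -1.46 ± 0.22 (SE; edgeR adjusted p = 0.00205). The direction was the same under 16 of 16 alternatives and the threshold was passed under 12, with adjusted p from 3.66e-13 to 0.761. The call was lost without mutant 1 (-1.15, edgeR adjusted p = 0.116). It was also lost with every deposited barcode (0.761), with the non-T cluster kept (0.370) and at equal shares of the 3 largest classes (-0.92, limma adjusted p = 0.191).

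Pmepa1 (ENSMUSG00000038400, minus strand of chromosome 2, 173224458 to 173276533) stood at 101 (WT 1), 80.3 (WT 2), 40.3 (mutant 1) and 36.3 (mutant 2). The mutant libraries lay close together and both were far below the WT libraries. The means were 90.5 ± 14.5 and 38.3 ± 2.82 (SD, n = 2 each), and the log2 difference was -1.23 ± 0.16 (SE; edgeR adjusted p = 0.000520). The change lay between -1.38 and -1.05 over 16 alternatives, 13 of which passed. Adjusted p ranged from 1.62e-11 to 0.761, and the call was lost with every deposited barcode (0.761), with the non-T cluster kept (0.213) and at equal shares of the 3 largest classes (limma, 0.0574).

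Ldlrad4 (ENSMUSG00000024544, chromosome 18, 67933257 to 68268630, plus strand) stood at 44.0 (WT 1), 46.0 (WT 2), 39.2 (mutant 1) and 36.8 (mutant 2). The genotypes did not overlap, but the log2 fold change of -0.23 ± 0.15 (SE) did not pass the test (edgeR adjusted p = 0.568). Smurf2 (ENSMUSG00000018363, chromosome 11, 106820066 to 106920715, minus strand) stood at 34.9 (WT 1), 32.9 (WT 2), 27.1 (mutant 1) and 29.5 (mutant 2). The mutant libraries were again a little below both WT libraries, with a log2 difference of -0.29 ± 0.16 (SE; edgeR adjusted p = 0.476). Both genes stayed below 0 in 16 of 16 alternatives, and neither passed the threshold in any of them.

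Among the nuclear co-repressors, Skil (ENSMUSG00000027660, chromosome 3, 31095058 to 31122577, plus strand) stood at 80.8 (WT 1), 79.4 (WT 2), 47.4 (mutant 1) and 43.1 (mutant 2). Libraries of one genotype were nearly alike and the genotypes were far apart. The means were 80.1 ± 0.98 and 45.2 ± 3.04 (SD, n = 2 each), and the log2 difference was -0.81 ± 0.14 (SE; edgeR adjusted p = 0.00651). The size was stable, from -0.91 to -0.76 over 16 alternatives, but the call held in 10 of them, with adjusted p from 5.44e-05 to 0.761. It was lost without WT 1 (edgeR, 0.0861), without mutant 1 (edgeR, 0.0621), with every deposited barcode (edgeR, 0.761) and with the non-T cluster kept (edgeR, 0.288). At equal shares of the Tfh-like class and cluster 1, described below, limma gave 0.207, and at equal shares of the 3 largest classes it gave 0.117.

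Ski (ENSMUSG00000029050, chromosome 4, 155154075 to 155222592, minus strand), the close relative of Skil, stood at 68.6 (WT 1), 69.8 (WT 2), 66.5 (mutant 1) and 79.3 (mutant 2). The mutant libraries fell on either side of the WT libraries, and the log2 fold change was 0.05 ± 0.14 (SE; edgeR adjusted p = 0.914). Tgif1 (ENSMUSG00000047407, chromosome 17, 70844205 to 70853546, minus strand) stood at 22.0 (WT 1), 20.4 (WT 2), 26.1 (mutant 1) and 17.0 (mutant 2). Here too the genotypes overlapped, with a log2 difference of 0.13 ± 0.19 (SE; edgeR adjusted p = 0.819). In all, 5 of the 7 genes had both mutant libraries below both WT libraries, where 22.9% of all genes tested did.

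**Figure D1:**
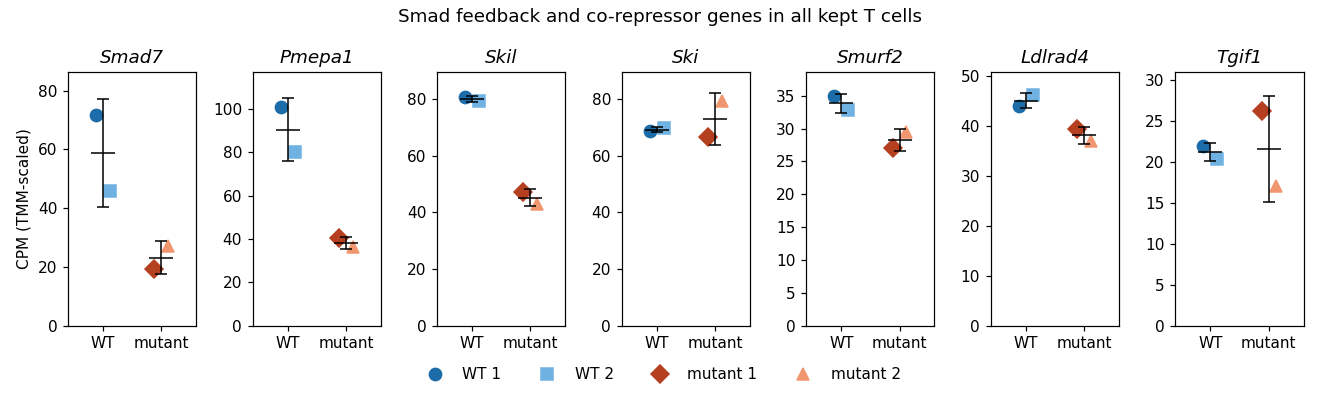
Level of each gene in all kept T cells, as CPM after TMM scaling on axes that start at 0; points are the 4 libraries, and bars are the mean and SD of each genotype (n = 2). Smad7, Pmepa1 and Skil show a wide gap between WT and mutant libraries, Smurf2 and Ldlrad4 a narrow one, and Ski and Tgif1 overlap.

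The share of cells with at least 1 UMI was compared after each cell was thinned to 3000 UMIs, which left out 13, 18, 34 and 22 shallower cells of WT 1, WT 2, mutant 1 and mutant 2. Smad7 was then found in 18.3% of cells of WT 1, 12.4% of WT 2, 4.72% of mutant 1 and 8.75% of mutant 2, with exact Clopper-Pearson 95% intervals of 9.89% to 15.3% in WT 2 and 4.87% to 14.2% in mutant 2. These intervals cover counting error only, and those of the nearest libraries of the 2 genotypes overlap. Pmepa1 was found in 23.3% and 16.6% of WT cells against 10.1% and 10.0% of mutant cells, and Skil in 19.6% and 20.1% against 12.7% and 11.25%. Shares of Ski overlapped, at 18.3% and 19.6% against 17.3% and 23.75%. Without thinning, Smad7 was found in 36.6% and 26.5% of WT cells against 11.8% and 17.6% of mutant cells, Pmepa1 in 45.3% and 39.8% against 21.8% and 19.2%, and Skil in 40.8% and 43.3% against 27.6% and 28.6%.

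In 63 cells of the non-T cluster thinned alike, Smad7 was found in 9.52%, Pmepa1 in 11.1% and Skil in 25.4%, at a median of 6329 UMIs before thinning against 8760 to 9463 in the kept T cells. That cluster, led by B cell and epithelial genes, is no clean negative, since these genes are active in many cell types, and the mutant shares of Smad7 and Pmepa1 are below or close to its values. Free RNA as a source of the lowest shares was not tested. UMIs per positive cell, unthinned, differed in direction between the genes. Positive cells had on average 1.81 and 1.56 Smad7 UMIs in WT against 1.42 and 1.50 in mutant libraries, and 1.83 and 1.66 Skil UMIs against 1.51 and 1.46. For Pmepa1 the libraries overlapped, at 2.06 and 1.82 against 1.62 and 1.83, as they did for Smurf2 and Ldlrad4. Both mutant libraries were higher for Ski (1.46 and 1.43 against 1.51 and 1.67) and for Tgif1 (1.25 and 1.22 against 1.32 and 1.30).

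To see in which T cell states the genes were used, cells were clustered on other genes, with the 7 genes left out. A cluster took a type's name only when at least 3 of its markers, and fewer than 3 of any other type, were among the leading genes. The classes were Tfh-like (T follicular helper, led by Ascl2, Tox2 and Sostdc1), naive or memory-like (Klf2, Ccr7, S1pr1), interferon signature-like (Rtp4, Irf7, Isg15), cytotoxic-like (Eomes, Nkg7, Prf1) and proliferating-like (Birc5, Mki67). The 6 others kept their numbers: cluster 1 (Egr3, Gpr183), cluster 3 (Nr4a1, Tnfrsf9, Myc), cluster 5 (Hectd2, Id2), cluster 6 (Fos, Fosb, Hspa1a), cluster 8 (Gm42418, Lars2) and cluster 10 (Gzmb, Cxcr6, Il10, Foxp3). Cluster 10 had 4 markers of regulatory T cells and 3 of Th17 cells, and so kept its number. Cluster 8 was shallow, with a median of 3322 UMIs per cell and 7.51% mitochondrial UMIs. The interferon signature-like class depended on the clustering. It held 243 cells here and 109 when the 7 genes entered the clustering. Its leading genes Setd4 and Rasl11a then led a Tfh-like cluster of 289 cells. At Leiden resolution 0.5 no cluster took the name, so the levels of this class need not belong to an interferon state. Levels by class are a description without a test, and the levels given for them are CPM of each class without TMM scaling.

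Smad7 varied most between states among the genes found in every class, 15.1-fold between the highest and the lowest class mean in WT cells. It was highest in cluster 8 (171 in WT 1 and 187 in WT 2), then in naive or memory-like cells (130 and 114), cluster 10 (119 and 108) and cytotoxic-like cells (128 and 90.4), and these last 3 overlapped. Clusters 5, 1, 6 and 3 formed a middle group with means from 47.4 to 55.9. It was lowest in interferon signature-like cells (13.1 and 13.2), Tfh-like cells (11.9 and 12.3) and proliferating-like cells (6.59 and 17.2), the last of which overlapped the Tfh-like class. Both ends of the range rest on few Smad7 UMIs in WT 1 and WT 2, with 8 and 12 in cluster 8 and 2 and 5 in proliferating-like cells. Among WT cells, the Tfh-like class thus held far less Smad7 than the naive or memory-like class.

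Pmepa1 was spread more evenly, with a 3.39-fold range in WT cells. It was highest in cluster 10 (161 and 215), then in cytotoxic-like cells (136 and 143) and cluster 3 (115 and 112), none of which overlapped the next class. The other 8 classes had means from 55.5 to 97.1, each overlapping its neighbour in the order. Unlike Smad7, Pmepa1 was no lower in Tfh-like cells (87.6 and 74.3) than in naive or memory-like cells (93.4 and 47.8), whose WT libraries differed widely.

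Skil had a 5.49-fold range in WT cells and was also highest in cluster 10 (211 and 231), followed by the shallow cluster 8 (214 and 156) and cytotoxic-like cells (117 and 112). It was lowest in proliferating-like cells (49.4 and 31.0). Ski was highest in cluster 8 (171 and 187) and lowest in cytotoxic-like cells (38.4 and 40.5), where Skil was high. Ldlrad4 had its highest mean in Tfh-like cells (81.6 and 73.6), each class overlapping the next down to proliferating-like cells, and its lowest in cluster 3 (21.9 and 24.8). Smurf2 varied little, 2.06-fold, and 9 of the 10 steps in its order overlapped. Tgif1 was highest in cluster 10 (33.2 and 76.9) and cytotoxic-like cells (42.5 and 43.6) and had no UMI in WT cells of cluster 8, where the 95% Poisson upper limits were 79.1 and 57.5.

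**Figure D2:**
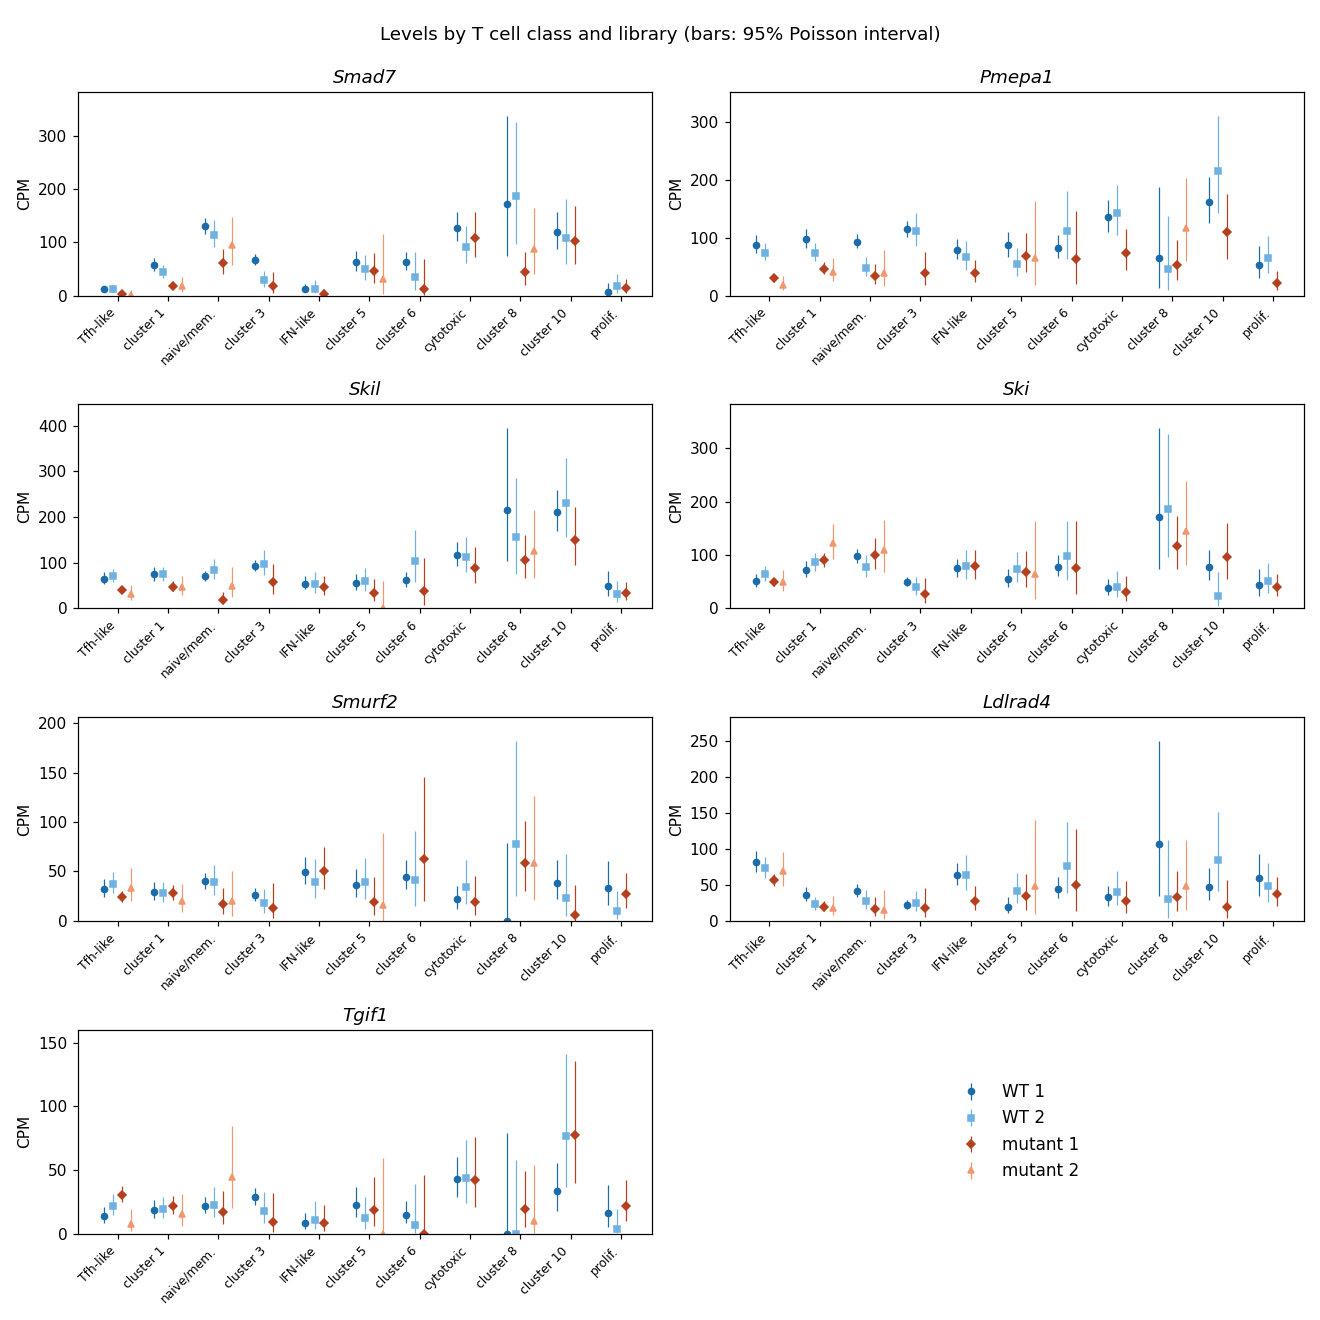
Levels by T cell class, as CPM without TMM scaling on axes that start at 0; each point is a library with at least 10 cells of the class, and bars are exact 95% Poisson intervals, which cover counting error only. Smad7 is near the bottom of its axis in Tfh-like, interferon signature-like (IFN-like) and proliferating-like (prolif.) cells, Pmepa1 and Skil peak in cluster 10, and Ldlrad4 is high in Tfh-like cells.

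Only the Tfh-like class and cluster 1 had at least 20 kept cells in every library, and genotype was tested within each. In Tfh-like cells (137, 141, 345 and 47 cells in WT 1, WT 2, mutant 1 and mutant 2), Pmepa1 was the 1 gene of the 7 that fell, where 0.246% of 8526 genes tested fell. It stood at 88.2 (WT 1), 74.0 (WT 2), 30.7 (mutant 1) and 18.5 (mutant 2) (TMM-scaled). Both mutant libraries were under the lower WT library by a wide margin, with and the log2 difference was -1.53 ± 0.22 (SE; edgeR adjusted p = 2.73e-06). The call was lost with DESeq2 (-1.61, adjusted p = 0.0813), and held under the other 9 of 10 alternatives, with adjusted p from 1.50e-08 to 0.0813.

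Smad7 in Tfh-like cells rested on few counts, 18, 17, 10 and 1 UMIs in WT 1, WT 2, mutant 1 and mutant 2. Its levels were 11.9 and 12.2 in WT and 3.01 and 1.85 in the mutant libraries, with a log2 difference of -2.07 ± 0.56 (SE; edgeR adjusted p = 0.0611), and it passed only when no filter on low counts was used (0.0475; range over 10 alternatives 0.0475 to 1.00). Skil stood at 65.0 and 69.7 against 42.2 and 31.5, a log2 difference of -0.76 ± 0.22 (SE; edgeR adjusted p = 0.0961). Neither overlapped between genotypes. Ldlrad4, which is highest in this class, stood at 82.2 and 73.3 against 59.1 and 68.6 (log2 fold change -0.34 ± 0.20 (SE), edgeR adjusted p = 0.751). In all, 5 of the 7 genes (Smad7, Pmepa1, Skil, Ski and Ldlrad4) had non-overlapping, lower mutant libraries, where 18.2% of genes did.

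In cluster 1 (157, 145, 226 and 51 cells in WT 1, WT 2, mutant 1 and mutant 2), Smad7 was the 1 gene of the 7 that fell, where 0.0614% of 8143 genes tested fell. It stood at 57.4 (WT 1), 45.3 (WT 2), 17.6 (mutant 1) and 17.4 (mutant 2). The mutant libraries were almost equal and both were far under the WT libraries, with and the log2 difference was -1.55 ± 0.27 (SE; edgeR adjusted p = 0.0199). The call was lost without WT 1 (-1.36, edgeR adjusted p = 0.255), with DESeq2 (adjusted p = 1.00) and when the 7 genes entered the clustering (edgeR adjusted p = 0.0822), and adjusted p ranged from 1.79e-05 to 1.00 over 10 alternatives.

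Pmepa1 in cluster 1 stood at 97.3 and 75.2 in WT against 48.0 and 41.4 in the mutant libraries, with a log2 difference of -0.91 ± 0.22 (SE; edgeR adjusted p = 0.242). It passed under 4 of 10 alternatives (adjusted p range 0.00548 to 1.00). Among them was Leiden resolution 0.5, where 59.8% of the cells in the matched cluster were cells of cluster 1. Skil stood at 74.2 and 75.2 against 49.1 and 45.7, a log2 difference of -0.63 ± 0.21 (SE; edgeR adjusted p = 0.563). Of the 7 genes, 4 had lower mutant libraries without overlap (Smad7, Pmepa1, Skil and Ldlrad4), where 19% of genes did. Ski stood at 72.8 and 87.3 against 92.6 and 122 (log2 fold change 0.36 ± 0.20 (SE), edgeR adjusted p = 0.753) and did not pass the test.

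Naive or memory-like cells had 275, 82, 54 and 19 cells in WT 1, WT 2, mutant 1 and mutant 2, so this class missed the minimum of 20 cells, and its test was added after the data were seen. None of the 7 genes passed there with edgeR (0.113% of 6201 genes tested fell, and 461 had an unadjusted p under 0.05), and 5 had lower mutant libraries without overlap, where 19.8% of genes did. Ski stood at 99.9 and 79.3 in WT against 105 and 112 in the mutant libraries (log2 fold change 0.20 ± 0.23 (SE), edgeR adjusted p = 0.885). Smad7 stood at 133 and 117 in WT against 64.7 and 96.4 in the mutant libraries (log2 fold change -0.76 ± 0.24 (SE), edgeR adjusted p = 0.295). Skil stood at 71.7 and 85.1 against 20.1 and 50.7 (log2 fold change -1.35 ± 0.35 (SE), edgeR adjusted p = 0.125), and passed without mutant 2 (-1.91, edgeR adjusted p = 0.00212; range over 8 alternatives 0.00212 to 0.999). DESeq2 called none of the 7 genes in this class.

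**Figure D3:**
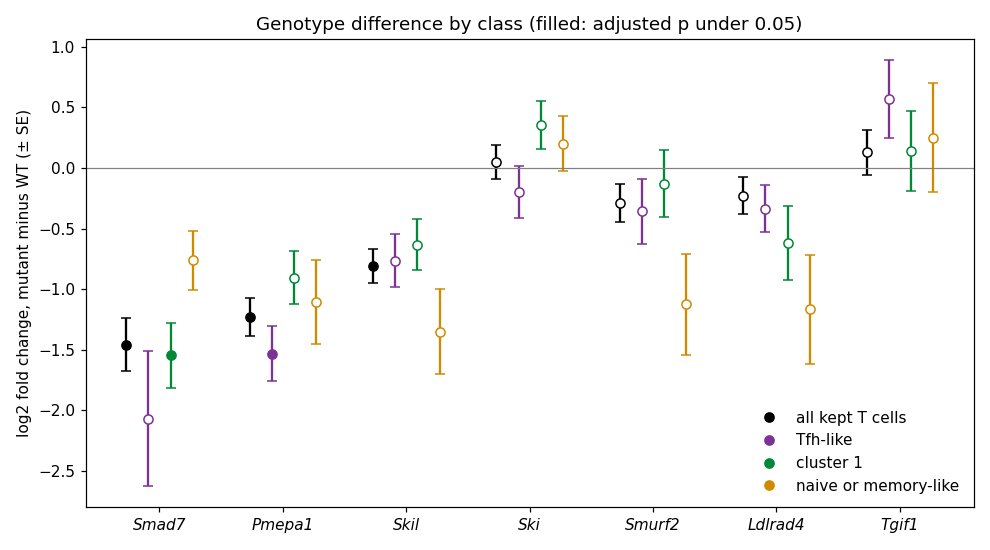
Log2 fold change (mutant minus WT) with its SE for each gene in all kept T cells, Tfh-like cells, cluster 1 and naive or memory-like cells; filled points have an edgeR adjusted p under 0.05. Smad7, Pmepa1 and Skil lie below 0 in all 4 sets of cells, and Ski and Tgif1 lie near or above 0 apart from Ski in Tfh-like cells (-0.19).

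Whether the genotype difference itself differed between the Tfh-like class and cluster 1 was put to a test of the interaction term (library as block), and none of the 7 genes passed, where 0.0563% of 8876 genes did (433 genes had an unadjusted p under 0.05; edgeR was the only tool run). The difference for Smad7 was -0.52, with a 95% interval from its SE of -1.62 to 0.59. For Skil it was -0.12, from -0.64 to 0.39. For Pmepa1 it was -0.63, from -1.16 to -0.10, with an unadjusted p of 0.0238 and an edgeR adjusted p of 0.941 (0.668 to 1.00 over 6 alternatives). So a call for Pmepa1 in one class and for Smad7 in the other does not show a difference between the classes. Against naive or memory-like cells, added later, Smad7 differed by -1.22 (interval -2.29 to -0.15, unadjusted p of 0.0277, edgeR adjusted p = 0.958).

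Outside the tested classes mutant 2 had at least 10 cells only in cluster 5 (12 cells) and cluster 8 (24 cells), so mutant 1 was set beside the WT libraries. Over the 11 classes with at least 10 cells of mutant 1, Skil in mutant 1 was below both WT libraries in 10, Smad7 and Pmepa1 in 9 each, Ldlrad4 in 8, Smurf2 in 7, Ski in 6 and Tgif1 in 4. Among all genes tested, 0.354% were below in at least 10 classes, 1.19% in at least 9, 3.4% in at least 8, 9.08% in at least 7, 19.4% in at least 6 and 55.1% in at least 4. The exceptions for Smad7 were cytotoxic-like cells, at 108 in mutant 1 (exact 95% Poisson interval 71.9 to 156) against 128 and 90.4, and proliferating-like cells. In cluster 10, where Foxp3 and Il10 are leading genes, Smad7 stood at 103 (59.1 to 168) in mutant 1 against 119 and 108 in WT cells, a gap within counting error. These classes held 23 and 18 cells of mutant 1 and 6 and 3 cells of mutant 2, where Smad7 had 4 and 3 UMIs, and genotype was not tested in them. The exceptions for Pmepa1 were clusters 5 and 8, and that for Skil was the proliferating-like class. In cluster 8, Pmepa1 stood at 64.3 and 46.7 in WT (3 UMIs each) against 53.2 in mutant 1 and 116 in mutant 2 (interval 60.1 to 203), so the higher value was in a mutant library. In the same cluster, Smad7 stood at 171 and 187 in WT against 43.5 in mutant 1 and 87.2 in mutant 2.

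The shares of several classes differed between WT and mutant libraries, and the classes differ in these genes. These shares were not tested, and the WT libraries also differed from each other. Tfh-like cells made up 10.7% and 22.3% of the kept cells of WT 1 and WT 2 against 39.1% and 25.8% of mutant 1 and mutant 2, and naive or memory-like cells 21.5% and 13.0% against 6.12% and 10.4%. Cluster 3 made up 18.2% and 8.72% against 2.49% and 3.85%, cytotoxic-like cells 5.32% and 5.07% against 2.61% and 3.30%, and the shallow cluster 8 made up 1.10% and 3.17% against 6.69% and 13.2%. Summed cytotoxic markers gave 226 and 151 CPM in WT against 88.0 and 104 in mutant libraries, with 8 of 11 lower, and Th1 markers 188 and 136 against 74.2 and 80.9, with 7 of 10 lower. Without cluster 8 the log2 fold changes were -1.55 for Smad7, -1.30 for Pmepa1 and -0.88 for Skil, all past the threshold. WT class levels were therefore weighted with each library's own class shares (of UMIs), to give the level that WT classes at those shares would have. For Smad7 this gave 40.5 in mutant 1 and 54.3 in mutant 2, and the observed levels without TMM scaling were 18.8 and 28.1, lower by log2 differences of -1.10 and -0.95. For Pmepa1 it gave 84.0 and 82.9 against 39.6 and 37.5 observed, and for Skil 75.6 and 80.2 against 46.6 and 44.6. The same weighting gave 61.5 and 51.4 for Smad7 in WT 1 and WT 2, 92.6 and 87.2 for Pmepa1, and 83.0 and 77.3 for Skil. The observed mutant levels of all 3 genes lay below the weighted levels of every library. The weighting covers only the shares of these classes, and the mix of cells within a class was not tested.

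For Ldlrad4 the mix pointed the other way. The weighting over all classes gave 56.5 in mutant 1 and 50.9 in mutant 2, against 43.2 and 47.8 in WT 1 and WT 2, and the observed mutant levels were 38.6 and 38.1. Observed over mix was -0.55 and -0.42 on the log2 scale in the mutant libraries and -0.00 and -0.06 in the WT libraries. These values carry no test, and the WT libraries lie near 0 by construction since their own class levels were used. At equal shares of the Tfh-like class and cluster 1, Pmepa1 (-1.27, limma adjusted p = 0.0218) and Smad7 (-1.58, limma adjusted p = 0.0288) passed and Skil did not, as given above. At equal shares of the 3 largest classes, which add naive or memory-like cells, none of the 7 genes passed with limma, and Smad7 stood at -0.92 (adjusted p = 0.191) and Pmepa1 at -1.14 (adjusted p = 0.0574). Adjusted p over all 16 alternatives ran up to 0.761 for both.

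**Figure D4:**
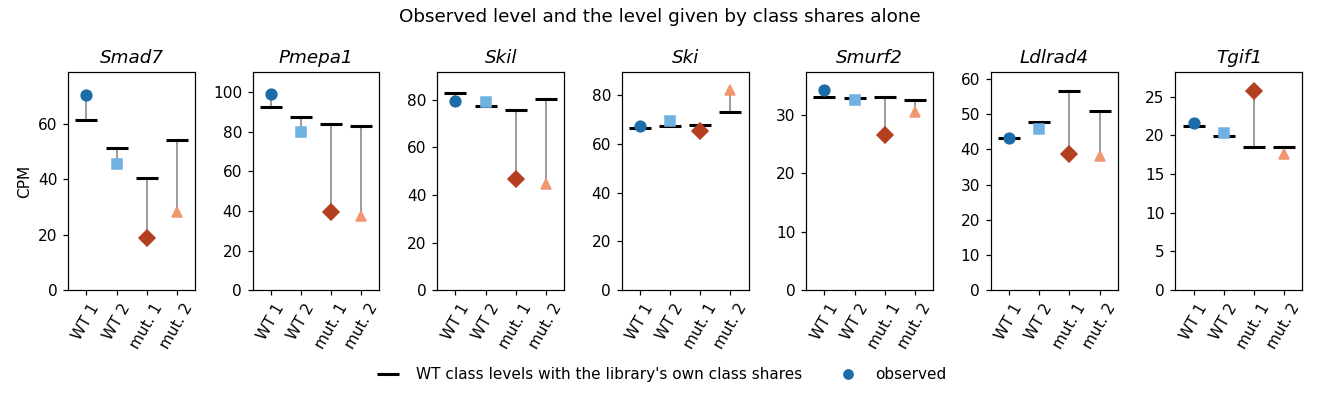
Observed CPM without TMM scaling (points) and the level given by WT class levels weighted with each library's own class shares (horizontal bars), on axes that start at 0. In both mutant libraries the points of Smad7, Pmepa1, Skil and Ldlrad4 lie below the bars, while those of Ski stay near them.

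Foxp3, which defines regulatory T cells, moved with genotype as well: 9.16% and 4.44% of kept cells in WT 1 and WT 2 held a Foxp3 UMI against 1.70% and 1.10% in mutant 1 and mutant 2, and 1.90% in the non-T cluster (2 of 105 cells, median 3931 UMIs). The mutant shares were no higher than the share in that small mixed cluster. The positive cells held 44 Foxp3 UMIs in mutant 1 (15 cells) and 3 in mutant 2 (2 cells). After thinning to 3000 UMIs, 12 cells of mutant 1 and 0 of mutant 2 still held one. Whether each Foxp3 UMI marks a cell that expresses the gene was not tested. Foxp3 itself fell (24.5 and 12.7 against 5.70 and 1.70; log2 fold change -2.01 ± 0.35 (SE), edgeR adjusted p = 0.00651). Among cells with a Foxp3 UMI, Smad7 stood at 82.7 in WT 1 (117 cells), 102 in WT 2 (28 cells), 82.2 in mutant 1 (15 cells, 12 UMIs) and 136 in mutant 2 (2 cells, 3 UMIs), without TMM scaling. Among cells without one, Smad7 stood at 69.1 and 42.8 in WT against 17.6 and 26.7 in the mutant libraries. With so few mutant cells, no comparison was made among cells with a Foxp3 UMI. Without these cells the log2 fold changes were -1.51 for Smad7, -1.21 for Pmepa1 and -0.81 for Skil, all past the threshold (edgeR adjusted p = 0.00581, 0.00156 and 0.0125).

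Immediate-early genes, which T cell stimulation and tissue handling both raise, moved too. Their sum was 4015 and 3429 CPM in WT and 3337 and 2787 in the mutant libraries, and 21 of the 25 genes had a lower mutant mean. By edgeR, 3 of 23 tested fell: Fos (269 and 182 against 83.8 and 55.0; log2 fold change -1.64 ± 0.19 (SE), adjusted p = 0.000243), Nr4a1 (-0.94, adjusted p = 0.0180) and Ppp1r15a (-0.92, adjusted p = 0.0315). DESeq2 called 2 genes of this list. Without cluster 6, which Fos leads and which held 107 and 20 WT cells against 11 and 0 mutant cells, Smad7 (-1.47), Pmepa1 (-1.24) and Skil (-0.82) were as low as with it. The part of handling in the remaining cells was not tested. Ppp1r15a was also a leading gene of cluster 6, and Nr4a1 of cluster 3, and both clusters had smaller shares in the mutant libraries. Whether the falls of these genes follow those shares was not tested. Median mitochondrial shares were 2.80% and 3.31% in WT and 3.70% and 3.22% in the mutant libraries.

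Other genes of the pathway were read from the same fit of all kept T cells. Of 28 other negative regulators, 22 were tested by edgeR and 0 rose or fell (4 had an unadjusted p under 0.05), with a median log2 fold change of 0.01. Of 28 receptors, ligands, activators and Smads, 15 were tested, with a median of -0.23, 1 rise and 1 fall. Itgb8, an integrin chain that helps to activate latent TGF-beta, rose (14.9 and 21.1 against 46.3 and 25.5; log2 fold change 1.16 ± 0.22 (SE), edgeR adjusted p = 0.0121). Tgfbr3, a co-receptor, fell (31.5 and 25.0 against 13.9 and 18.1; -0.93 ± 0.19 (SE), edgeR adjusted p = 0.0229). Of 20 other genes that TGF-beta raises, 13 were tested and 2 fell, Foxp3 and Ahr (37.5 and 31.1 against 16.3 and 19.3; -1.01 ± 0.18 (SE), edgeR adjusted p = 0.00631), while the median was 0.01. Ahr was also a leading gene of cluster 6, and Foxp3 of cluster 10. Whether their falls follow the shares of these clusters was not tested. Of 14 genes that TGF-beta represses, 11 were tested by edgeR and 0 passed (3 had an unadjusted p under 0.05), with a median of -0.15. DESeq2 called 0 genes of these 4 lists, the falls of Foxp3, Ahr and Tgfbr3 and the rise of Itgb8 included, whereas it called Smad7, Pmepa1 and Skil (adjusted p = 0.000378, 1.05e-05 and 0.0119).

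Genes whose levels followed those of Smad7, Pmepa1 and Skil were sought over the 8 profiles of library and class for the Tfh-like class and cluster 1, by Pearson's r of log2 levels. These profiles share libraries, and a high r over 8 points picked from all genes tested is a description only. The most alike for Smad7 were Anxa7 (0.97), Tmx3 (0.97), Slc9a3r1 (0.97), Mdm4 (0.96) and Zdhhc18 (0.96). For Pmepa1 they were Skil (0.97), Ctsw (0.97), Rbmx2 (0.96), Exosc7 (0.96) and Bin1 (0.96). For Skil they were Bin1 (0.98), Anp32a (0.98), Pmepa1 (0.97), Ctsw (0.97) and Prkaa1 (0.96). Over the 30 profiles of library and class with at least 20 cells, a wider set chosen after the data were seen, Pmepa1 and Skil still named each other among their 5 most alike genes (0.71), with Ctsw first for Pmepa1 (0.82). Smad7 had r of 0.58 with Pmepa1 and 0.60 with Skil there, and Arhgap9 came first (0.89).

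**Figure D5:**
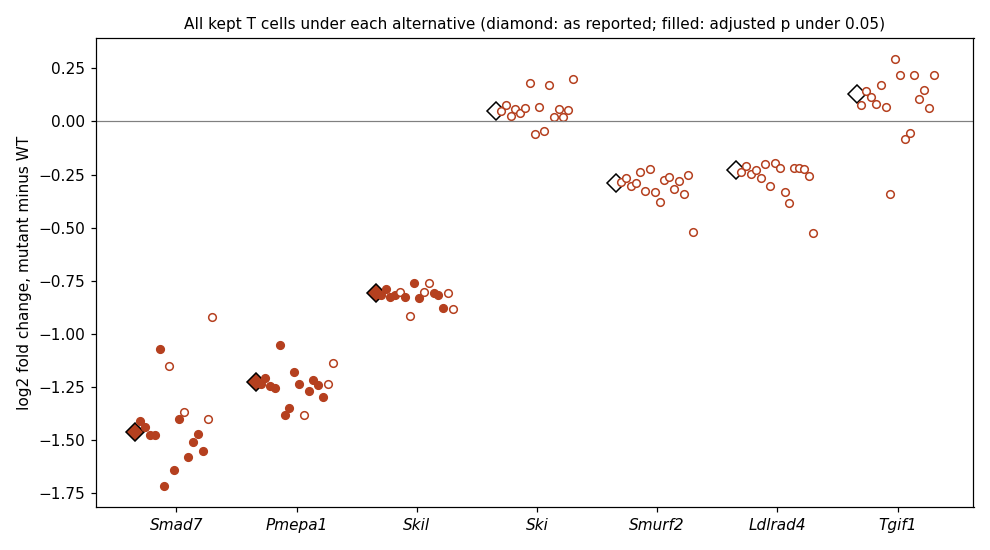
Log2 fold change (mutant minus WT) of each gene in all kept T cells as reported (diamonds) and under each of 16 alternatives (circles); filled symbols have an adjusted p under 0.05. Smad7, Pmepa1, Skil, Smurf2 and Ldlrad4 lie below 0 throughout, and Ski and Tgif1 lie on both sides of 0.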

How the data were processed

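The deposited matrices hold the authors' UMI counts, from Cell Ranger 6.0.0, Seurat 4 and mm10, per the submitters' processing notes; other settings are not given in the sources used here. Barcodes with at least 500 genes and at most 10% mitochondrial UMIs were kept (3108 of 4803), 31 Scrublet doublets were left out, and 3077 cells were clustered with scanpy 1.11.5 and leidenalg 0.10.2 (30 components, 15 neighbours, resolution 0.8, the 7 genes left out of the variable genes). A cluster of 105 cells led by B cell and epithelial genes was left out.

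Counts of 2972 kept cells were summed per library, or per library and class, and fitted by the quasi-likelihood method of edgeR 4.0.16 (TMM, filterByExpr, Benjamini-Hochberg adjustment over all genes tested, threshold 0.05). DESeq2 1.42.0 and limma 3.58.1 served for alternatives; limma took log2 of class-averaged levels plus 1. Class levels, thinned shares and mix-weighted levels are descriptions. Scripts were tested on simulated data, with R 4.3.3 and Python 3.11.15. Coordinates come from GENCODE vM21 (GRCm38).

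Genes are named by these rules: the 7 genes in every comparison, each gene of the fixed lists that passes over all kept T cells, the 5 genes most alike to Smad7, Pmepa1 and Skil, and Fos and Foxp3. The 7 genes and the lists were chosen with earlier results of these data known. Replicate numbers were not used to pair libraries in the reported fits, and the closing section gives a fit with a replicate block. The 2 WT samples labelled as hashtag libraries had no matrix of their own to analyse here.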

Additional observations from a re-analysis of the deposited data

Results flagged for a closer look

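The genotype difference differed between Tfh-like cells and cluster 1 for 5 genes, none of them among the 7 inhibitors (interaction term in edgeR with library as a block, Benjamini-Hochberg adjustment over 8876 genes). The log2 differences were -0.76 for S100a10 (adjusted p = 0.00306), 0.72 for Ms4a4b (adjusted p = 0.00420), 2.00 for Cybb (adjusted p = 0.00420), -1.17 for Hspa1b (adjusted p = 0.00578) and 0.96 for Arap2 (adjusted p = 0.0229). Between 0 and 5 genes passed when libraries were left out in turn, and without mutant 2 none did (edgeR; 426 genes with an unadjusted p under 0.05). Antibody tags gave 37707 counts in WT 1 and 20474 in WT 2, and the mutant matrices hold no tag features.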

How the results depend on the processing

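The genes past the threshold in all kept T cells (154) became 63 with DESeq2, 75 with no TMM, 411 with no filter, 99 without cells with a Foxp3 UMI, 5 at equal class shares, 1 at equal shares of the 3 largest classes, 0 with every deposited barcode (edgeR; 612 with an unadjusted p under 0.05) and 0 with the non-T cluster kept (edgeR; 958). Leaving out libraries gave 22 (without mutant 1) to 267 (without WT 2). Of the 7 genes, the 3 calls became 0 with every barcode, 0 with the non-T cluster kept and 0 at equal shares of the 3 largest classes, and 1 to 3 with libraries left out. In Tfh-like cells the 45 genes became 1 with DESeq2, 14 with the 7 genes in the clustering and 7 (without WT 1) to 117 (without mutant 2), and the 1 call among the 7 genes became 0 with DESeq2 and 2 with no filter. In cluster 1 the 9 genes became 1 with DESeq2, 21 with no filter, 33 at Leiden resolution 0.5, 0 with the 7 genes in the clustering (edgeR; 452) and 2 (without WT 1) to 114 (without mutant 1), and the 1 call among the 7 became 0 with DESeq2, 0 with the 7 genes in the clustering, 2 with no filter, 3 at resolution 0.5 and 0 to 2 with libraries left out. In naive or memory-like cells the 9 genes became 2 with DESeq2, 14 with no TMM, 19 with no filter and 2 (without WT 1) to 43 (without mutant 2), and the 0 calls among the 7 became 1 with no filter and 0 to 1 with libraries left out. The 5 interaction genes became 3 against naive or memory-like cells and 0 (without mutant 2) to 5 with libraries left out; the planned pair with a further class was not run, since no other class had enough cells. At resolution 0.5 the matched clusters were wider. Tfh-like cells made up 77.7% of the match of that class, and cluster 1 cells 59.8% of the match of cluster 1. The cause of these changes was not tested. Mutant minus WT shares of cells with a UMI moved, for Smad7 from -8.60 to -16.9 percentage points not thinned, for Pmepa1 from -9.88 to -16.0 at 5000 UMIs and -22.1 not thinned, for Skil from -7.85 to -11.1 and -14.0, for Smurf2 from -2.00 to -3.54 not thinned, for Ldlrad4 from -2.13 to -3.81 not thinned, for Tgif1 from -0.58 to 0.63 at 5000 UMIs, and for Ski from 1.62 to -1.45 not thinned. No tested call changed sign.

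The labels do not say whether libraries of the same number belong together. Deviations from the group means correlated at 0.034 over 10727 genes. With 2 libraries per genotype and few cells in mutant 2, these deviations also hold counting noise, so this value cannot decide whether they do. With a replicate block, 381 genes passed in all kept T cells and 47 in cluster 1, and the log2 fold changes were -1.47 for Smad7, -1.25 for Pmepa1 and -0.82 for Skil, all past the threshold. In cluster 1, 2 of the 7 genes passed with the block.

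The total of UMIs was lowest in mutant 2 (182 cells), where Smad7 in Tfh-like cells rested on 1 UMI.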
